A study of Mus musculus with 6 samples.

Results

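The genes described here are the major histocompatibility complex (MHC, called H2 in the mouse) and antigen presentation genes of the pancreatic islet. They were taken by name and annotation. A gene was a member if its row was protein-coding and its name began with H2- or was B2m, Cd74, Tap1, Tap2, Tapbp, Ciita or Nlrc5. This gave 41 genes of 22046 protein-coding and 54532 rows in all. RNA was sequenced from whole pancreatic islets of mice aged 7 weeks. The control group was 3 libraries from Ythdc1flox/flox mice, and the other group was 3 libraries from Ythdc1-βKO mice (bKO), a name that stands for a knockout in beta cells. YTHDC1 is a nuclear protein that binds N6-methyladenosine in RNA. The replicates are labelled as biologically independent, and neither the strain nor the Cre line behind the deletion is given in the labels. The genotype label of all 3 bKO libraries is the same, but the free-text description of bKO replicates 2 and 3 names Ythdc2 and Ythdc3 in place of Ythdc1. The deposited values are FPKM, which correct reads for the length of the gene and the size of the library, so levels can be compared between genes.

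MHC class I molecules are made of a heavy chain and beta-2-microglobulin (B2m), stand on nearly all nucleated cells and show peptides made inside the cell to CD8 T cells. The transporter Tap1/Tap2 brings these peptides into the endoplasmic reticulum, tapasin (Tapbp) helps load them, and NLRC5 is the transactivator of class I genes. MHC class II molecules are pairs of an alpha and a beta chain, are found mainly on macrophages, dendritic cells and B cells, and show peptides taken up from outside to CD4 T cells. The invariant chain Cd74 guides class II chains to the endosome, H2-DM exchanges its remnant for peptide, and CIITA is the transactivator of class II genes. In the islet, endocrine cells carry class I, and resident macrophages are the best known carriers of class II.

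Of the 41 members, 24 were class I heavy chain genes, 10 were class II genes with Cd74, 6 were the loading and regulator genes B2m, Tap1, Tap2, Tapbp, Nlrc5 and Ciita, and 1, H2-Ke6, is a steroid dehydrogenase gene whose name only reflects its place in the cluster. 21 members passed the filter on low values (0.5 FPKM or more in 3 or more libraries) and were tested, made up of 10 class I, 6 class II and 5 loading and regulator genes. 20 did not pass. 7 of these had 0 reads in all libraries, all of them class I genes of the H2-M series.

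Promoters of several members are shown because short elements are known to drive these genes. Among them are an X box and a Y box in class II promoters, and a kappaB element in the upstream enhancer of the classical class I genes. The X and Y boxes are not taken here as particular to class II, and the Y box letters were found in both classes. The stretches are the 250 bases before the RefSeq start on GRCm38.p6, 5′ to 3′ on the gene's strand, for 2 class II genes that fell (H2-Aa, minus strand, chr17:34287824-34288073, and H2-Eb1, plus strand, chr17:34305617-34305866), for both classical class I genes (H2-K1, minus strand, chr17:34000348-34000597, and H2-D1, plus strand, chr17:35262844-35263093), and for H2-Q2 (plus strand, chr17:35342057-35342306), the class I gene that fell. Capitals mark CTGATTGG (the Y box), GNAACNGAT (the core of the X box) and GGGATTCCC (the core of the kappaB element), each searched on both strands.
H2-Aa: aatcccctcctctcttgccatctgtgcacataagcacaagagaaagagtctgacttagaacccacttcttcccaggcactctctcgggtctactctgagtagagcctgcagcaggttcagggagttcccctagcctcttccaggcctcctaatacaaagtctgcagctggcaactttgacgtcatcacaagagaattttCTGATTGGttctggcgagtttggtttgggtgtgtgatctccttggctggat
H2-Eb1: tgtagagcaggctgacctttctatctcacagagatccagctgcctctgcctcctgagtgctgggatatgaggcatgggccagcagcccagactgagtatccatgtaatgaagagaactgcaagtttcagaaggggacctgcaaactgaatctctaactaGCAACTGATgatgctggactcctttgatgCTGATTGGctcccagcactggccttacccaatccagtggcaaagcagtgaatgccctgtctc
H2-K1: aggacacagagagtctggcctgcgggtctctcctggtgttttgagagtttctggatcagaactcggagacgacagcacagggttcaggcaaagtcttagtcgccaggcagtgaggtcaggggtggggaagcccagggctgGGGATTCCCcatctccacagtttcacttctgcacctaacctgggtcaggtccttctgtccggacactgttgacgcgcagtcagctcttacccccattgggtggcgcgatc
H2-D1: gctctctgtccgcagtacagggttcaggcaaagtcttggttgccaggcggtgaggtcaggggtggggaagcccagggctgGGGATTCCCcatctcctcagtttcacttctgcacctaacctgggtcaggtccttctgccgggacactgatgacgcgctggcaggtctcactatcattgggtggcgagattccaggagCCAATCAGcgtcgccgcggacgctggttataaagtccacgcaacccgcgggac
H2-Q2: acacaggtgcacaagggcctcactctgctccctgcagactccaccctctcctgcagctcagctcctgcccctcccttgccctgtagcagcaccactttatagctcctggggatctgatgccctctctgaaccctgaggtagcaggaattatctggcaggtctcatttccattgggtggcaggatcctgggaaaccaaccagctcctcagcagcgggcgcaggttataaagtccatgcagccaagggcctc

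H2-Eb1 held the X box letters beginning 91 bases and the Y box letters beginning 62 bases before its start, and H2-Aa held the Y box letters 51 bases before its start. The kappaB letters began 110 bases before the start of H2-K1 and 170 bases before that of H2-D1. In H2-D1 the Y box letters stood on the other strand (CCAATCAG). In H2-K1 they also stood on the other strand, but 8 bases after the start and so outside the printed stretch. Counted from a further start of H2-K1, they began 6 bases before it. H2-Q2 had no match to these letters in its window. For 34 of the 41 members a promoter window of 300 bases was searched (250 before and 50 after the start). Some had more than 1 start. Windows on chromosome 18, where Cd74 lies, were left out of the search of members. Among the tested genes, the kappaB letters were found in 4 of 9 class I genes with a window (H2-D1, H2-K1, H2-Q6 and H2-Q7) and in 0 of 4 class II genes, and in 0.353% of the 32851 windows of all genes. The Y box letters were found in 5 of these 9 class I and 2 of these 4 class II genes and in 4.10% of all windows. The X box letters were found in 0 of the 9 and in 2 of the 4 (H2-DMb1 and H2-Eb1), and in 2.06% of all windows. The windows of H2-DMa, from 34122582 and 34125268, lie well upstream of the gene start that goes with its FPKM (34135182). Its lack of a match is therefore uncertain. A match is a match of letters and not a measured binding site. The search allowed no mismatch outside N, so a window without a match is not shown to lack the element. The X box and kappaB letters were shortened after a search with longer forms, so these counts describe and do not test. Counts of members are per gene, while the shares of all genes are per window.

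The label of the tissue was checked on 9 islet endocrine genes, all of which passed the filter, with Ins2 at 134303 ± 6487 FPKM in control and 84754 ± 3347 FPKM in bKO (SD, n = 3). Ythdc1 itself fell from 6.13 ± 0.35 to 3.82 ± 0.041 FPKM (limma adjusted p = 0.0014) and was lower in all 3 bKO libraries, including replicates 2 and 3. Depth was 16863329 to 18240339 reads per library, recovered from the FPKM and gene lengths. Across all 15717 genes tested, 20.3% were called (limma adjusted p under 0.05), 11.4% lower and 8.96% higher in bKO. All 3 bKO libraries lay below all 3 controls in 21.6% of tested genes and above them in 18.5%. The authors' FPKM are scaled by size factors, and with libraries scaled by their totals the median log2 difference of all tested genes moved from -0.01 to 0.13. Differences of that order turn on the choice of scaling.

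The class II chains and the invariant chain were lower in bKO islets. 4 of the 6 tested class II genes fell (Cd74, H2-Eb1, H2-Ab1 and H2-Aa), 0 rose, and the other two, H2-DMa and H2-DMb1, did not pass the test. The median log2 difference of the 6 genes was -0.67, beside -0.01 for all genes tested. In 5 of the 6 all bKO libraries were below all controls. Over all tested genes 11.4% were called lower and 21.6% had all bKO libraries below all controls.

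Cd74, the invariant chain and the most abundant gene of the class II group, was at 93.9, 88.2 and 84.8 FPKM in the controls and at 59.7, 59.2 and 49.8 FPKM in bKO. It fell by 0.66 on the log2(FPKM + 1) scale (SE 0.078, limma adjusted p = 0.0024). The lowest control was well above the highest bKO library. H2-Eb1, the beta chain of the E molecule (chromosome 17, 34305877 to 34316199, GRCm38 as for all positions), was at 39.5, 37.0 and 36.7 FPKM in control and 23.5, 24.2 and 18.8 FPKM in bKO. It fell by 0.75 (SE 0.094, limma adjusted p = 0.0028). H2-Ab1, the beta chain of the A molecule (chromosome 17, 34263209 to 34269418), was at 30.8, 26.2 and 31.1 FPKM in control and 15.3, 19.0 and 13.3 FPKM in bKO. Its fall of 0.86 had the greatest size among the tested members (log2 difference -0.86, SE 0.13, limma adjusted p = 0.0053). H2-Aa, the alpha chain that pairs with it (chromosome 17, 34282744 to 34287827), was at 24.4, 22.1 and 23.6 FPKM in control and 15.3, 15.8 and 11.7 FPKM in bKO. It fell by 0.69 (SE 0.11, limma adjusted p = 0.0063).

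These 4 genes stood at 0.541 (H2-Ab1) to 0.632 (Cd74) of their control means. Of the 6 ratios between them within a library, 5 overlapped between the groups. The exception was Cd74 over H2-Eb1, at 2.36 ± 0.042 in control and 2.55 ± 0.10 in bKO (SD, n = 3). H2-Aa over H2-Ab1 was 0.798 ± 0.044 in control and 0.900 ± 0.085 in bKO, and Cd74 over H2-Ab1 was 3.05 ± 0.32 and 3.58 ± 0.41 (SD, n = 3). Among the bKO libraries, replicate 3 was the lowest in 5 of the 6 tested class II genes and the highest in 0. Without it, the 4 genes were still called and the median log2 difference of the 6 was -0.57. All 4 calls also held with libraries scaled by their totals, where H2-Ab1 was at -0.69 (limma adjusted p = 0.0091).

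**Figure D1:**
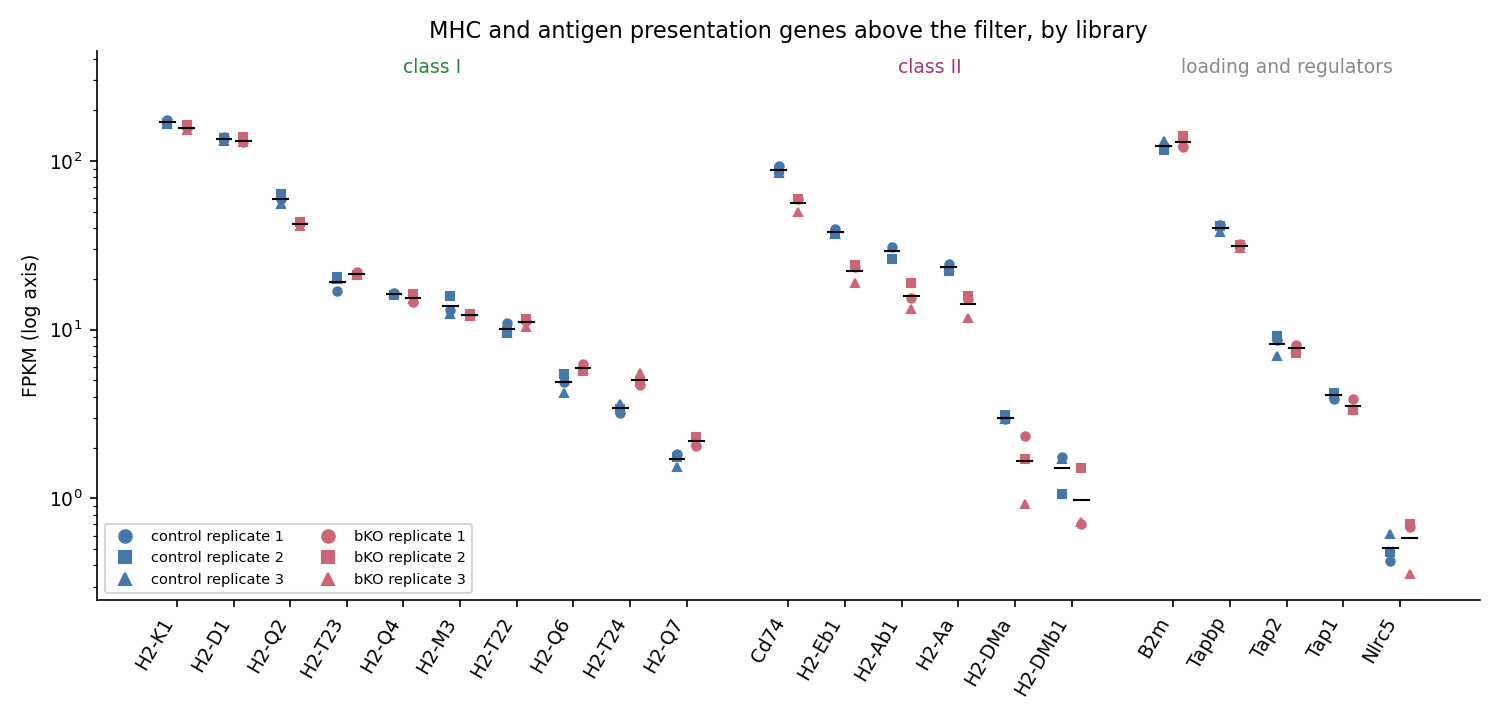
FPKM (log axis) of the 21 tested members in each of the 6 libraries, controls in blue and bKO in red, with a bar at each group mean. The bKO libraries lie below all controls for Cd74, H2-Eb1, H2-Ab1 and H2-Aa, while for H2-D1 and B2m the groups overlap.

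H2-DMa and H2-DMb1 encode the chains of the H2-DM exchange factor and were much less abundant. H2-DMa (chromosome 17, 34135182 to 34139101) was at 2.95, 3.11 and 2.97 FPKM in control and 2.35, 1.71 and 0.923 FPKM in bKO, from 28 to 88 reads per library. The groups did not overlap, but the bKO libraries differed among themselves by more than the controls did, and the difference was not called (log2 difference -0.63, SE 0.19, limma adjusted p = 0.059). It was called with voom on recovered reads (-0.95, limma adjusted p = 0.0078) and without bKO replicate 1 (-0.81, limma adjusted p = 0.027). Exons of H2-DMa overlap those of Brd2 on the other strand, and without a stated strand setting the reads of such pairs cannot be told apart. H2-DMb1 was at 1.76, 1.06 and 1.70 FPKM in control and 0.701, 1.52 and 0.728 FPKM in bKO (log2 difference -0.35, 95% interval -0.81 to 0.11, limma adjusted p = 0.25). The groups overlapped.

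The other class II genes were barely detected. H2-Ob and H2-Oa, the chains of H2-DO, which holds back H2-DM mainly in B cells, had 1 to 4 and 0 to 3 reads per library, H2-DMb2 had 0 to 2 and H2-Eb2 had 0 or 1. They were not tested. Ciita, the class II transactivator, had 42, 42 and 68 reads in control and 35, 42 and 38 in bKO. That is 0.274, 0.256 and 0.440 FPKM against 0.191, 0.243 and 0.216 FPKM, and it too did not reach the filter. With no filter its log2 difference was -0.12 (SE 0.071, limma adjusted p = 0.41), on a scale that understates changes at such low levels.

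Class I heavy chains did not move together. Of 10 tested class I genes 1 fell (H2-Q2), 1 rose (H2-T24) and 8 did not pass the test. The median log2 difference was 0.04, with 5 of the 10 values below 0. All bKO libraries lay below all controls in 3 of them and above in 4, beside 21.6% and 18.5% of all tested genes. The share of class I genes called was close to the 20.3% called over all tested genes.

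H2-K1 and H2-D1, the classical heavy chains, were the most abundant members. H2-K1 (chromosome 17, 33996017 to 34000333) was at 176, 168 and 167 FPKM in control and 157, 163 and 153 FPKM in bKO. Although the groups did not overlap, the difference was not called (log2 difference -0.11, 95% interval -0.21 to -0.02 before adjustment, limma adjusted p = 0.099). It was called with voom on recovered reads (-0.11, limma adjusted p = 0.043), and scaling by library totals turned it to 0.07. H2-D1 (chromosome 17, 35262730 to 35267499) was at 138, 137 and 132 FPKM in control and 129, 138 and 129 FPKM in bKO, with overlapping groups (log2 difference -0.04, 95% interval -0.14 to 0.06, limma adjusted p = 0.56). With libraries scaled by their totals it was at 0.14 and called (limma adjusted p = 0.027).

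H2-Q2, a gene of the Q series of nonclassical class I genes (chromosome 17, 35342242 to 35346762), was at 59.3, 64.0 and 55.9 FPKM in control and 42.7, 43.3 and 41.3 FPKM in bKO. It fell by 0.48 (SE 0.054, limma adjusted p = 0.002) to 0.71 of its control mean. Every bKO library was below every control, and within libraries H2-Q2 over H2-K1 went from 0.351 ± 0.025 to 0.269 ± 0.0033 (SD, n = 3) with no overlap. H2-T24 (chromosome 17, 36005695 to 36020560), of the T series, was at 3.22, 3.38 and 3.65 FPKM in control and 4.68, 4.88 and 5.50 FPKM in bKO. It rose by 0.45 (SE 0.075, limma adjusted p = 0.0081), with every bKO library above every control. Both calls held in each of the 13 alternatives run. Scaling by library totals took H2-Q2 to -0.31 (limma adjusted p = 0.0065).

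Other nonclassical genes had small differences of either sign. H2-Q6 was at 4.91, 5.48 and 4.20 FPKM in control and 6.22, 5.69 and 5.86 FPKM in bKO, and H2-Q7 at 1.82, 1.76 and 1.53 and at 2.05, 2.30 and 2.18 FPKM. For both the bKO libraries lay above the controls without a call (log2 differences 0.24 and 0.23, limma adjusted p = 0.098 and 0.082). H2-Q6 was called without control replicate 2 (0.32, limma adjusted p = 0.0496). H2-T23, which encodes Qa-1, the ligand of inhibitory NKG2A receptors, was at 17.05, 20.6 and 19.8 FPKM in control and 21.9, 21.1 and 21.1 FPKM in bKO (log2 difference 0.15, limma adjusted p = 0.17). H2-M3 was at 13.1, 15.9 and 12.4 FPKM in control and 12.3, 12.4 and 11.998 FPKM in bKO, groups that lay apart by little. H2-T22 (9.62 to 11.01 and 10.4 to 11.6 FPKM) and H2-Q4 (16.0 to 16.6 and 14.7 to 16.3 FPKM) overlapped between the groups. H2-T22, a ligand of some gamma-delta T cells, was at 0.12, H2-Q4 at -0.08 and H2-M3, which presents formylated peptides, at -0.16 on the log2 scale, with limma adjusted p of 0.25, 0.28 and 0.25. H2-Q6, H2-Q7, H2-T22 and H2-T23 were called higher with libraries scaled by their totals (0.28 to 0.39), as was H2-D1, so that scaling gave 6 rises and 1 fall among the 10 class I genes.

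Class I genes are close copies of each other, and the handling of reads that match several genes was not given in the sources used here. Of all 150-base windows (1 read length) in the annotated transcripts, 5.99% of those of H2-Q6 and 5.90% of those of H2-Q7 occur letter for letter in another gene's transcripts, for H2-Q6 those of H2-Q7 and for H2-Q7 those of H2-Q5, H2-Q6 and H2-Q10. The share was 2.56% for H2-Q2 and 1.35% for H2-D1, both with H2-Q1, and 0% for H2-K1, H2-T24 and the class II genes other than H2-DMb1 (4.71%, with H2-DMb2). H2-Q6 and H2-Q7 are therefore less certain as single genes than the rest. Untested class I genes were at 0 to 22 reads per library, the highest being H2-M10.2 with 2, 5 and 10 reads in control and 5, 7 and 22 in bKO. H2-Ke6 had 3 to 14 reads per library. Exons of H2-Q4, H2-T22, Tap2, Nlrc5, Ciita and Cd74 overlap those of other genes, the first 5 on the other strand. None of the 13 untested members with reads was called when the filter was left off. The log2(FPKM + 1) scale understates changes at such low values, so little can be read from this lack of calls.

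**Figure D2:**
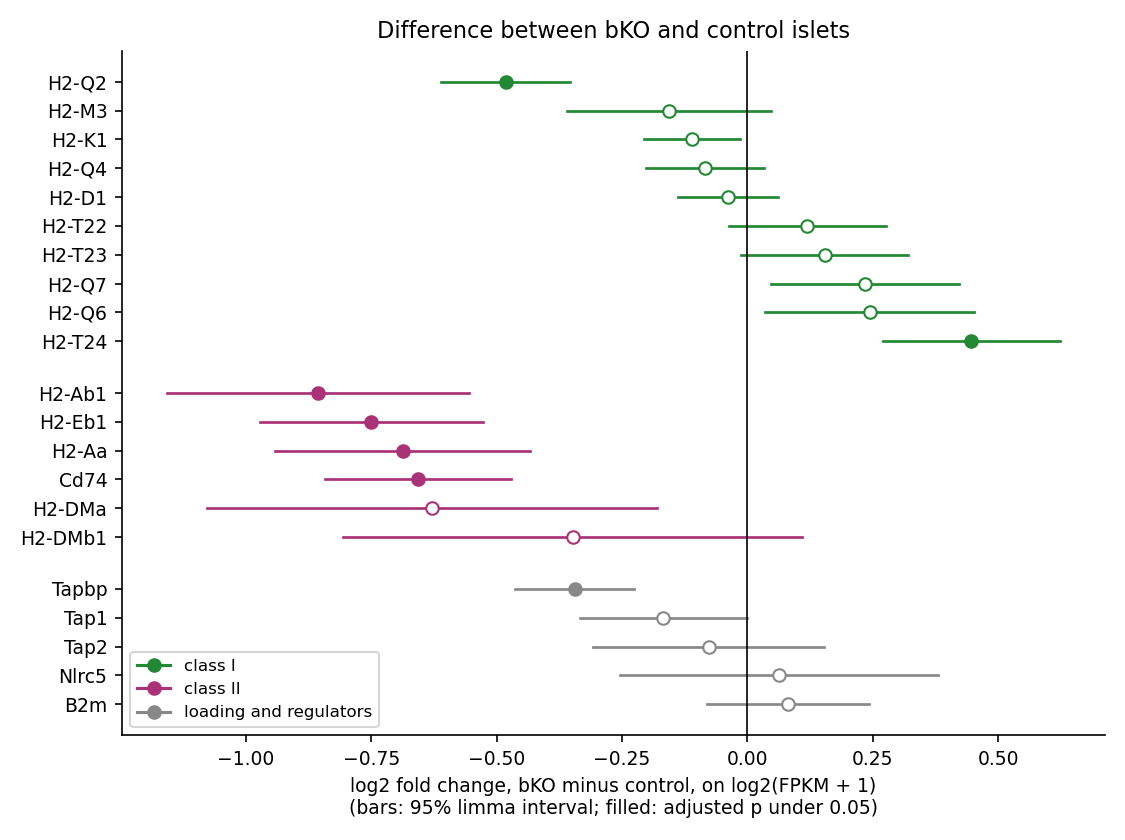
Log2 difference between bKO and control on the log2(FPKM + 1) scale for each tested member, with its 95% limma interval, in the 3 groups of genes. Filled points have an adjusted p under 0.05: 4 of 6 class II genes on the left, H2-Q2 and H2-T24 on opposite sides of 0, and Tapbp.

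Of the loading and regulator genes 1 of 5 tested fell (Tapbp) and 0 rose, with a median log2 difference of -0.08. 4 were not called, and over all tested genes 20.3% were called. B2m, the light chain shared by all class I molecules (chromosome 2, 122147686 to 122153083), was at 123, 116 and 131 FPKM in control and 121, 141 and 129 FPKM in bKO. Its groups overlapped (log2 difference 0.08, 95% interval -0.08 to 0.24, limma adjusted p = 0.45), and scaling by library totals raised it to 0.26 with a call (limma adjusted p = 0.03). Tapbp, tapasin (chromosome 17, 33915899 to 33929288), was at 41.9, 41.2 and 37.7 FPKM in control and 32.3, 31.6 and 30.6 FPKM in bKO. It fell by 0.34 (SE 0.05, limma adjusted p = 0.0049), with no overlap. It was called in all 13 alternatives, with a smaller difference of -0.17 under scaling by library totals (limma adjusted p = 0.03). Its exons overlap those of Zbtb22 and, on the other strand, Gm19412.

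The peptide transporter genes differed less. Tap1 was at 3.87, 4.23 and 4.16 FPKM in control and 3.86, 3.33 and 3.40 FPKM in bKO (log2 difference -0.17, limma adjusted p = 0.14), and its exons overlap those of Psmb9 on the other strand. Tap2 was at 8.71, 9.13 and 6.97 FPKM in control and 8.15, 7.27 and 7.82 FPKM in bKO (log2 difference -0.08, limma adjusted p = 0.62). Nlrc5, the class I transactivator, was near the filter at 0.424, 0.478 and 0.618 FPKM in control and 0.681, 0.702 and 0.357 FPKM in bKO (log2 difference 0.06, 95% interval -0.25 to 0.38, limma adjusted p = 0.78). The 95% interval of Tap1 ran from -0.33 to 0.00 and that of Tap2 from -0.31 to 0.15.

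Set side by side within each library, class II was lower relative to class I in all 3 bKO libraries. Summed FPKM of the 24 class I genes were 441, 443 and 423 in control and 402, 419 and 397 in bKO, 0.932 of control. Summed FPKM of the 10 class II genes were 193, 178 and 181 in control and 117, 121 and 95.4 in bKO, 0.604 of control. The ratio of class II to class I was 0.439, 0.402 and 0.428 in control and 0.291, 0.290 and 0.240 in bKO. As means this was 0.423 ± 0.019 and 0.274 ± 0.029 (SD, n = 3), with no overlap, and a ratio within a library does not depend on how libraries are scaled. As a sum over chosen genes it was given no test. In shares of all reads class I took 0.104% ± 0.0013 in control and 0.111% ± 0.0025 in bKO, and class II 0.0255% ± 0.00089 and 0.0174% ± 0.0022. Class I was thus lower in bKO in summed FPKM and higher in shares of reads, whereas class II was lower in both. Within the class I sum the largest falls in FPKM were those of H2-Q2 and H2-K1. Their group means went from 59.8 to 42.4 and from 170 to 158 FPKM. In 4 of the 10 tested class I genes all bKO libraries lay above all controls.

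**Figure D3:**
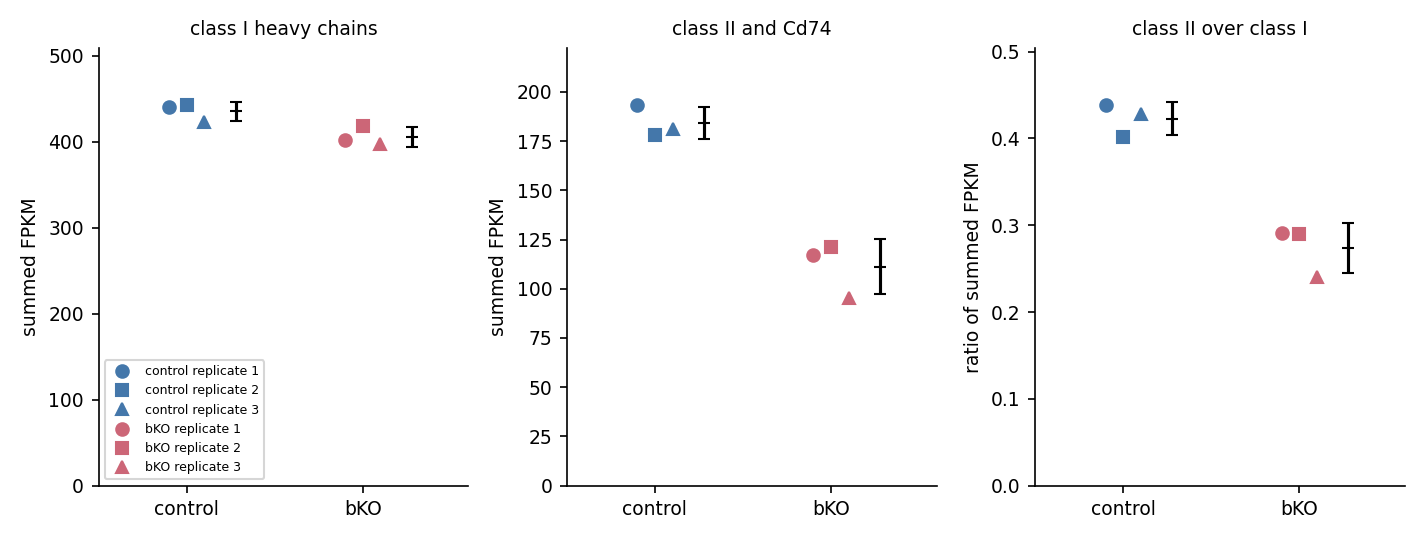
Summed FPKM of the 24 class I heavy chain genes, of the 10 class II genes with Cd74, and their ratio, by library, with mean and SD (n = 3) beside the points and axes from 0. The ratio is 0.402 to 0.439 in the controls and 0.240 to 0.291 in bKO.

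Markers of the cells that carry class II were read in the same libraries. Of 15 macrophage markers 12 were tested, 4 fell (C1qa, C1qb, C1qc and Tyrobp) and 0 rose, with a median log2 difference of -0.37. Among all tested genes 11.4% were called lower and 8.96% higher. Leaving out control replicate 1 or bKO replicate 1 left 2 of the markers called, as did total scaling and no filter, while voom called 6. The summed FPKM of all 15 were 105 to 121 in control and 69.2 to 83.9 in bKO, and C1qa, a complement subunit gene, made up most of it at 58.6 ± 5.8 and 40.6 ± 4.1 FPKM. Replicate 3 was the lowest bKO library here too, at 69.2. The pan-leukocyte gene Ptprc was at 0.371 ± 0.032 and 0.277 ± 0.051 FPKM, under the filter, and none of the macrophage markers had 0 reads throughout. Class II over macrophage markers, in summed FPKM, was 1.65 ± 0.049 in control and 1.41 ± 0.034 in bKO (SD, n = 3), with no overlap. The part of the macrophage markers in the class II difference was not tested. In whole islets fewer cells of a type and less RNA per cell cannot be told apart.

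Other antigen-presenting cells left little signal. Of 9 dendritic cell markers 2 were tested, Itgax and Zbtb46, and neither was called (limma adjusted p = 0.44 and 0.2). Their summed FPKM were 1.63 to 2.86 in control and 1.75 to 2.61 in bKO, and Cd209a had 0 reads throughout. Of 8 B cell markers only Cd79a, which encodes a signalling chain of the antigen receptor, passed the filter. It was at 6.69, 6.81 and 4.02 FPKM in control and 1.57, 0.719 and 1.52 FPKM in bKO and fell by 1.59 on the log2 scale (limma adjusted p = 0.0044). The summed B cell markers were 4.39 to 7.08 FPKM in control and 0.966 to 2.11 FPKM in bKO. The defining B cell gene Ms4a1 had 0 reads in all controls and 0 to 3 in bKO, and Cd79b was at 0.056 ± 0.048 and 0.063 ± 0.079 FPKM. T cell markers summed to 0.397 to 0.883 FPKM in control and 0.366 to 1.07 FPKM in bKO, with Cd3g at 0 reads throughout. Of 9 markers of blood endothelial cells, which carry class I, 5 rose (Eng, Tek, Flt1, Plvap and Cdh5) and 0 fell. The shares among all tested genes were 8.96% higher and 11.4% lower. These 9 markers summed to 157 to 182 FPKM in control and 204 to 208 FPKM in bKO. The 5 calls became 3 without control replicate 1 or bKO replicate 1, 2 without control replicate 2 or bKO replicate 2, and 1 without bKO replicate 3. With no filter or the replicate number as a block 2 were called, and total scaling gave 8. Of 3 tested lymphatic endothelial markers Lyve1, which some macrophages also carry, fell from 5.85 ± 0.46 to 1.29 ± 0.13 FPKM (limma adjusted p = 0.00015), and 2 were not called. Of the 9 islet endocrine genes 4 fell (Ins1, Ins2, Chga and Nkx6-1) and 1 rose (Ppy), beside 11.4% and 8.96% of all tested genes. The 9 genes took 28.8% ± 0.64 of all reads in the controls and 22.2% ± 0.59 in the bKO libraries (SD, n = 3). Leaving out a library left 1 to 3 of the 4 falls, 1 without bKO replicate 1 and 2 without control replicate 1 or bKO replicate 2. No filter gave 1 lower and 0 higher, the replicate number as a block 1 and 1, and total scaling 3 and 3. Acinar markers, with 0 of 7 tested called, summed to 48.7 to 159 FPKM in control and 97.0 to 138 FPKM in bKO. Without control replicate 3, 2 of the 7 were called higher, and voom called 1 higher. The part of these cells in the class I and class II values was not tested.

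**Figure D4:**
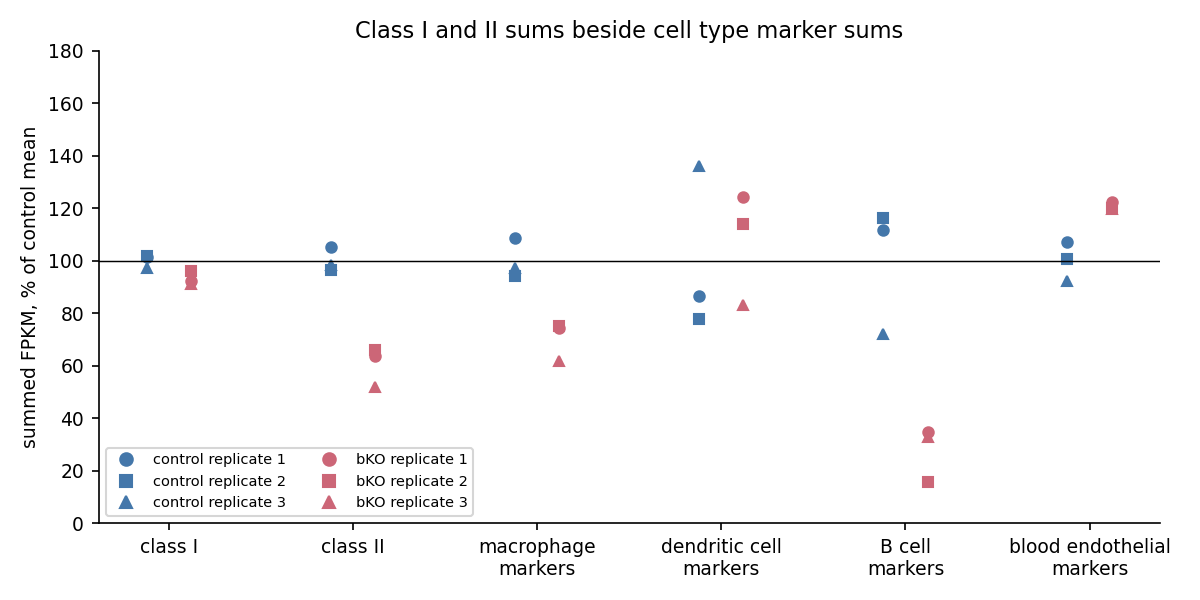
Summed FPKM of class I, class II and 4 marker lists in each library as a percent of the control mean. The class II and macrophage points of bKO lie below the controls in all 3 libraries, the B cell sum is mostly Cd79a, and the dendritic cell groups overlap.

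Few other genes of the class II pathway were called. Of 22 such genes 17 were tested, 2 fell and 0 rose, beside 11.4% lower and 8.96% higher over all tested genes. The median log2 difference of the 17 was -0.10 (total scaling gave 1 lower and 3 higher). Ctss, cathepsin S, which trims the invariant chain, was at 25.7, 23.5 and 25.2 FPKM in control and 13.7, 14.6 and 11.2 FPKM in bKO and fell by 0.87 (SE 0.094, limma adjusted p = 0.0017). It is also a gene of macrophages. Nfyc, a subunit of the Y box factor NF-Y, fell by 0.35 (limma adjusted p = 0.041), a call that was lost in 8 of 13 alternatives, among them libraries scaled by their totals (-0.18, limma adjusted p = 0.19), no filter, and leaving out control replicate 1, control replicate 2 or 1 of the bKO libraries (limma adjusted p = 0.054 to 0.12). Of the other Y box and X box factor genes, Nfya was at -0.25 and Rfx5 at -0.13 (limma adjusted p = 0.063 and 0.18). The endosomal thiol reductase gene Ifi30 was at 18.8 ± 3.0 and 14.1 ± 2.6 FPKM (limma adjusted p = 0.11), and the asparaginyl endopeptidase gene Lgmn was at -0.12 (limma adjusted p = 0.093). The costimulatory genes Cd40, Cd80 and Cd86 did not reach the filter.

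Of 19 other class I pathway genes, all tested with a median of -0.20, 7 fell and 0 rose, beside 11.4% and 8.96% of tested genes. Among them were the chaperone genes Canx (119 ± 2.0 to 97.2 ± 2.7 FPKM, limma adjusted p = 0.0027), Calr (247 ± 1.5 to 212 ± 4.9 FPKM, limma adjusted p = 0.0061) and Pdia3 (339 ± 6.1 to 295 ± 5.9 FPKM, limma adjusted p = 0.011), which take part in glycoprotein folding in every cell. The proteasome activator gene Psme1 fell by 0.25 and the tapasin relative Tapbpl by 0.24, and the interferon regulatory factor genes Irf1 and Irf2 by 0.29 and 0.23 on the log2 scale (limma adjusted p = 0.012, 0.042, 0.035 and 0.044). Of these calls that of Psme1 was lost in 2 of 13 alternatives, those of Tapbpl and Irf1 in 8 each and that of Irf2 in 9, with limma adjusted p up to 0.41. The immunoproteasome gene Psmb8 was at -0.40, the proteasome activator gene Psme2 at -0.37, the peptide-trimming aminopeptidase gene Erap1 at -0.19 and the neonatal Fc receptor gene Fcgrt at 0.34 without a call (limma adjusted p = 0.098, 0.068, 0.058 and 0.095). With libraries scaled by their totals 1 of the 19 was called lower, Canx (-0.12, limma adjusted p = 0.032), and 3 were called higher. Without control replicate 1, bKO replicate 2 or bKO replicate 3, 4 of the 19 were called lower, as with no filter, and voom called 12.

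The H2- members lie on chromosome 17 between 33996017 (H2-K1) and 37483552 (H2-M2), among 138 other protein-coding genes. 75 of these were tested, 5 fell and 9 rose, a share near the 20.3% called over all tested genes. The median log2 difference of the 75 was -0.03. Scaling by library totals gave 1 lower and 25 higher. Leaving out 1 library gave 2 to 6 lower and 4 to 8 higher, with 2 lower without bKO replicate 2 and 4 higher without bKO replicate 1. Col11a2, a collagen gene at the class I end near H2-K1, rose from 1.43 ± 0.20 to 3.11 ± 0.25 FPKM (limma adjusted p = 0.0024), and Tcf19, a transcription factor gene between H2-Q and H2-T, fell from 6.42 ± 0.54 to 3.80 ± 0.76 FPKM (limma adjusted p = 0.011). The other rises were in Msh5, Ppp1r10, BC051142, Ager, Trim39, Prrt1, C4b and C2 (0.27 to 0.67) and the other falls in Mdc1, Abcf1, Ehmt2 and Trim26 (-0.28 to -0.16). The complement genes C4b and C2, at 0.47 and 0.42 (limma adjusted p = 0.048 and 0.044), lost their calls in 9 of 13 and in 6 of 9 alternatives that gave a value. Trim39 and Prrt1 lost the call in 7 of 13 alternatives each and Trim26 in 9. Ehmt2 lost it in 7 and turned sign without a call in 1 more. Abcf1 lost it in 2, and Ager and Mdc1 in 1 each. Psmb8 and Psmb9 also lie in this interval.

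**Figure D5:**
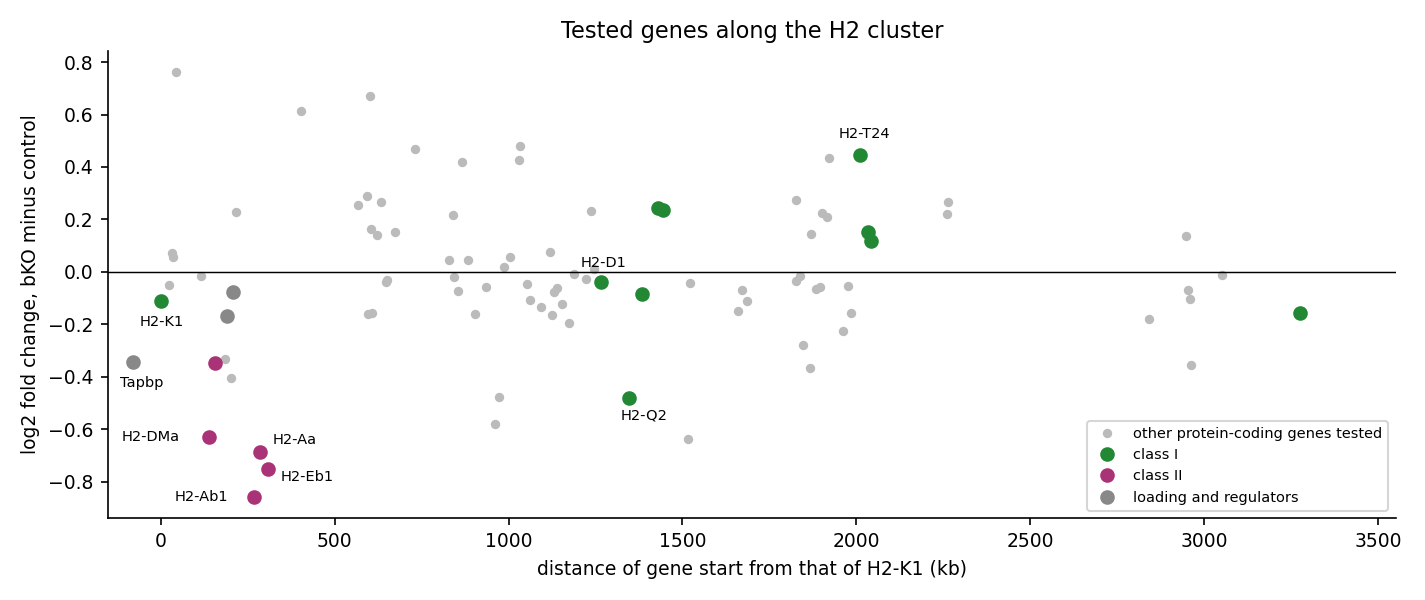
Log2 difference (bKO minus control) of tested genes against the distance in kilobases of the gene's start from that of H2-K1, for members (coloured by group) and the 75 other tested protein-coding genes (grey). Cd74 and B2m, on other chromosomes, are left out. The class II genes sit together below 0, while grey points lie on both sides of 0.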

How the data were processed

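RNA of 6 islet libraries was poly(A)-selected and read as pairs of 150 bases, per the labels. Per the submitters' processing notes the tools were CASAVA, HISAT2 2.0.5, featureCounts 1.5.0-p3 and DESeq2 1.20.0, and the build GRCm38, with no step named. Strand setting, treatment of reads with several matches and annotation release are not given in the sources used here. What the authors deposited is 1 table of FPKM with gene lengths. Multiplied by length and 1 factor per library, 100% of the values above 0 came to whole reads within 0.01, and the factors hold median-of-ratios size factors.

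Groups came from the genotype labels. With limma 3.58.1 in R 4.3.3, a linear model of log2(FPKM + 1), bKO minus control, was fitted with the mean-variance trend and no covariate to 15717 genes that had 0.5 FPKM or more in 3 or more libraries. P-values were adjusted over all of these by Benjamini-Hochberg (threshold 0.05). This scale understates changes of low genes. Promoters came from RefSeq (GRCm38.p6), exons and transcripts from GENCODE. 34 of 41 members were matched to promoters by symbol, with chromosome 18, that of Cd74, left out. The X box and kappaB letters were shortened after a search with longer forms. Named genes are all members, the called genes of other lists and up to 4 uncalled ones with the smallest p. Cd40, Cd80, Cd86, Ms4a1, Cd79b, Cd209a, Cd3g, Ptprc and Psmb9 were added as defining markers, low genes or neighbours after their values were seen. Members, lists and tests were chosen with earlier results of these data known. 0 columns of other samples were present. The alternatives were pseudocounts of 0.1 and 0.5, no filter, a filter of 1 FPKM, scaling by library totals, voom on recovered reads, the replicate number as a block, and leaving out each library.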

Additional observations from a re-analysis of the deposited data

How the results depend on the processing

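The 4 class II falls (Cd74, H2-Eb1, H2-Ab1 and H2-Aa), the falls of H2-Q2 and Tapbp and the rise of H2-T24 kept their direction and call in all 13 alternatives. The number of class II genes called was 4 to 5, that of class I genes 2 to 3 and that of loading and regulator genes 1 when 1 library was left out. Scaling by library totals gave 7 called class I genes (6 higher) and 2 called loading and regulator genes, and turned the log2 differences of H2-K1 to 0.0654, H2-D1 to 0.137, H2-Q4 to 0.0818, H2-M3 to 0.00754, Tap2 to 0.0804 and the neighbour Ehmt2 to 0.0120. Of these H2-D1 was called. Over all genes the count was 3192, with 1830 to 2835 when a library was left out; total scaling gave 3684 higher and 737 lower, a share of 83.3% higher among called genes against 44.1%. The replicate number as a block gave 2077, with 4 class II, 2 class I and 1 loading genes called as without it, and 3 in place of 7 of the other class I pathway genes. The labels do not say that a shared number marks a pair. Same-numbered libraries deviated from their group means with correlations of -0.052, -0.014 and -0.073, which cannot settle whether they were paired. In summed reads in place of FPKM the class II to class I ratio was 0.245 in control and 0.157 in bKO, since gene lengths differ. Without 1 library the ratio was 0.415 to 0.433 in control and 0.265 to 0.291 in bKO, class I shares were 0.103% to 0.105% and 0.109% to 0.112%, and class II shares 0.0250% to 0.0259% and 0.0167% to 0.0186%. Depth limits H2-DMa, H2-DMb1 and Ciita, with at most 88 reads per library. No group had the 4 samples needed to look for a library far from the rest.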
